A study of Mus musculus with 4 samples.

Results

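Receptors that couple to G proteins were described in male mice aged 12 months, in RNA of the left hippocampus. The group holds glutamate, GABA, acetylcholine, monoamine, opioid, somatostatin, tachykinin, prostaglandin E, endothelin, cannabinoid, nucleotide and protease-activated receptors, together with the genes numbered Gpr, many of them orphans with no agreed ligand. The rule for members uses the gene symbol and no measured value, though it was written with earlier results of these data known. They came to 58 of the 8251 genes named on the array, read by 67 of 10833 probe sets that carry 1 gene symbol. A probe set is a handful of oligonucleotide pairs designed against a transcript. No probe set for an adenosine or a beta-adrenergic receptor met the rule.

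The 2 control arrays hold RNA of nontransgenic mice (C57B6/SJL), and the 2 others hold RNA of Tg2576 mice, labelled APPSw, which overexpress amyloid precursor protein carrying the Swedish mutation. As background, the Tg2576 transgene is driven by a prion protein promoter and is expressed in neurons across the forebrain. Each array is described as the hippocampus of a mouse, but nothing states that the animals were separate or littermates, so each p-value reflects only how these samples varied, and that variation may be technical. The values were linear MAS 5.0 signals in arbitrary units, scaled by the authors to a target of 2500 on each array. A signal does not rank receptors against each other, because probe sets differ in how brightly they hybridize.

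Receptors of this superfamily cross the membrane and pass a signal to a G protein inside the cell. Those coupled to Gs raise cyclic AMP, those coupled to Gi or Go lower it and open potassium channels, and those coupled to Gq release calcium through phospholipase C. In the hippocampus they tune the excitability of pyramidal cells and the release of glutamate and GABA from terminals.

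Most receptors with enough signal to test had about the same signal in both groups, and no difference passed the test over the array. Gabbr1, the ligand-binding subunit of the GABA-B receptor, had, of those tested, the clearest separation below the controls, which were 1.37-fold brighter (log2 difference -0.45, SE 0.17, 2 arrays per group). Htr5b, a serotonin receptor, had the clearest separation above them, at 1.42-fold (0.51, SE 0.18). Chrm1, Drd2, Grm8, Sstr4 and Gpr12 differed by at most 0.18 in size, and their signs changed with an array left out. The largest value tested, for Sstr2, came from a dim signal on control 1.

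Of the 67 probe sets, 28, for 24 genes, had a geometric mean signal over the 4 arrays at or above 565, the 40th percentile of the array, and entered the test. The other 39 lay under it and are given as values without a test, so 34 genes had no tested probe set. No receptor passed limma's test at an adjusted p of 0.05 (0 of 28, where the share over all 7453 probe sets tested was 0%), and the lowest adjusted p of a receptor was 0.609. Before adjustment, 2 receptors had a p under 0.05, Gabbr1 lower and Htr5b higher in APPSw mice, or 7.14% against a background of 8.05% (4.72% higher and 3.33% lower). The groups did not overlap for 11 of 28, that is, both APPSw signals were above or both below the controls (39.3%, against 41.2% of all tested probe sets). Without overlap, 7 of the 28 were higher and 4 lower (25% and 14.3%, against 22.2% and 19% of all). These shares lie near those of the whole array, so the counts do not set the receptors apart.

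The differences were small. The median log2 difference, APPSw minus control, was 0.07 over the 28 receptor probe sets and 0.02 over all tested probe sets. Of the 28, 19 lay above 0 (67.9%, against 52.7% of all) and 9 below (32.1%, against 47.3%), or 17 and 11 after quantile normalization. In size, 27 of 28 differed by less than 1.5-fold (96.4%, against 92.4% of all). For 25 of 28 the 95% interval of limma's fit lay within 2-fold in either direction. Those of Sstr2, F2r and Htr1a reached past it. The standard errors ran from 0.17 to 0.61 with a median of 0.19.

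**Figure D1:**
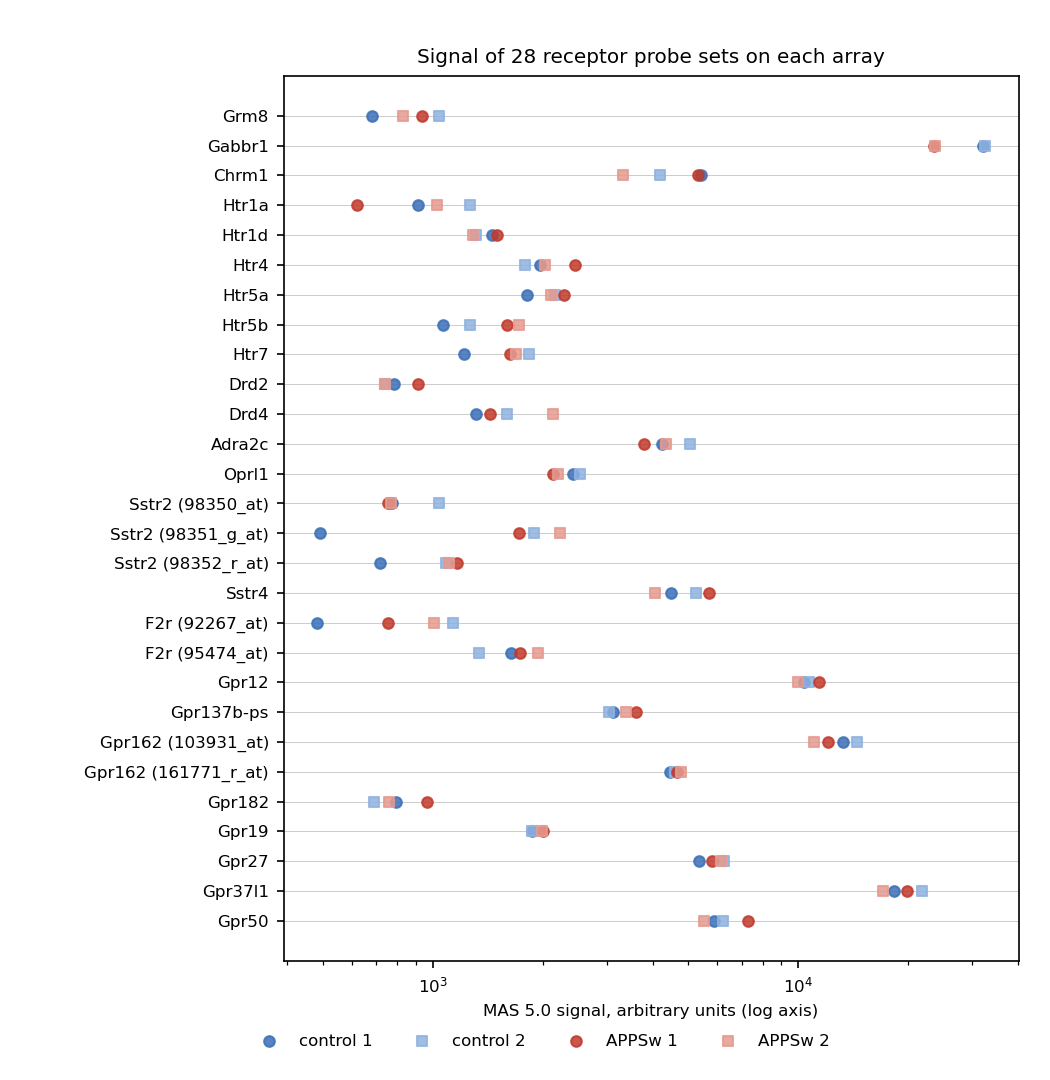
MAS 5.0 signal in arbitrary units (log axis) for the 28 tested receptor probe sets, with a point for each of the 2 control (blue) and 2 APPSw (red) arrays. Gabbr1 shows the 2 controls at 32159 and 32491 apart from the 2 APPSw arrays at 23518 and 23660, while most receptors have interleaved groups; positions of different probe sets along the axis are not comparable.

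The GABA-B receptor, of which Gabbr1 encodes a subunit, is an obligate dimer that inhibits transmitter release at terminals and opens potassium channels on dendrites. Gabbr1 signals were 32159 and 32491 on the control arrays against 23518 and 23660 on the APPSw arrays. Both APPSw arrays lay under both controls, with the nearest arrays 1.36-fold apart, and the arrays within each group differed by 1.01-fold. The mean was 32325 ± 234 (SD, n = 2) over the controls against 23589 ± 101 (SD, n = 2) over the APPSw arrays, a log2 difference of -0.45 (SE 0.17, 95% interval -0.86 to -0.04). With limma the unadjusted p was 0.035 and the adjusted p 0.609, so the difference did not pass over the array. With each array left out the log2 difference stayed between -0.46 and -0.45, while limma's unadjusted p was 0.071 to 0.14, and it was 0.073 with the replicate block.

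Markers of hippocampal principal neurons, which carry many of these receptors, lay lower in the same arrays. Of 14 such genes 13 were on the array, and their summed signal was 86134 and 78052 on the control arrays against 68084 and 55656 on the APPSw arrays. The median log2 difference was -0.44 over the 12 tested, with 11 below 0 and 1 above. Wfs1 (-0.00) and Camk2a (0.00) hardly differed, and none of the 13 had a signal of 0 on any array. Some of these genes were listed with their lower values already known, so the count is not independent. Markers of neocortex summed to 16151 and 17227 on the control arrays against 22132 and 25383 on the APPSw arrays. Of 8 such genes 6 were on the array, and the 5 tested lay above 0 (median 0.34). Among them Fezf2 (0.87) and Mef2c (0.93) lay highest and Cux1 (0.02) lowest, while Cux2, under the filter, lay at -0.06. Markers of meninges and fibroblasts summed to 53809 and 64120 against 94217 and 64438 (12 of 12 genes, median 0.57, 8 of 8 tested above 0). The high sum was that of APPSw 1, while APPSw 2 lay near control 2. Of the meningeal and fibroblast genes under the filter, Col3a1 (-0.20), Fmod (-0.60) and Nupr1 (-0.92) lay below 0 and Aldh1a2 (0.92) above. Interneuron markers summed to 154866 and 148124 on the control arrays against 137664 and 153208 on the APPSw arrays. The part of these markers in the Gabbr1 value was not tested, and in whole tissue fewer cells of a type and less RNA per cell cannot be told apart.

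Grm8, a presynaptic glutamate receptor that restrains release, was the only metabotropic glutamate member. Its signals were 683 and 1038 on the control arrays against 937 and 830 on the APPSw arrays, so both APPSw arrays lay between the controls. The log2 difference was 0.07 (SE 0.25), and -0.05 after quantile normalization.

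Chrm1, the muscarinic acetylcholine receptor of pyramidal cells that couples to Gq, had signals of 5440 and 4186 on the control arrays against 5329 and 3309 on the APPSw arrays. The groups overlapped, and the 2 APPSw arrays differed more than the group means did. The log2 difference of -0.18 (SE 0.29, adjusted p = 0.866) became 0.16 without APPSw 2 and 0.00 without control 1. Chrm4, which couples to Gi, was under the filter at 155 and 163 on the control arrays against 154 and 375 on the APPSw arrays.

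Serotonin receptors formed the largest monoamine family, with 12 probe sets for 10 genes and 6 of them tested. Of these 6, 5 lay above 0 and 1 below, with values from -0.43 to 0.51. Htr5b, an inhibitory serotonin receptor of rodents, gave the highest of these. Its signals were 1070 and 1266 on the control arrays against 1597 and 1721 on the APPSw arrays. Both APPSw arrays exceeded both controls, with the nearest arrays 1.26-fold apart. The log2 difference was 0.51 (SE 0.18, 95% interval 0.06 to 0.96, limma unadjusted p = 0.034, adjusted p = 0.609). It ranged from 0.39 without control 1 to 0.63 without control 2, with an unadjusted limma p of 0.055 to 0.2 when an array was left out and of 0.052 with the replicate block. Its close relative Htr5a had 1813 and 2155 on the control arrays against 2284 and 2102 on the APPSw arrays, with overlapping groups and a log2 difference of 0.15 (SE 0.18).

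Htr1a, the receptor through which serotonin hyperpolarizes pyramidal cells, had signals of 912 and 1266 on the control arrays against 620 and 1025 on the APPSw arrays. The lowest value was in APPSw 1, and APPSw 2 lay between the controls. The log2 difference of -0.43 (SE 0.30, 95% interval -1.19 to 0.32, limma adjusted p = 0.696) was -0.07 without APPSw 1 and -0.79 without APPSw 2. Htr1d, a presynaptic receptor, differed by 0.01 (SE 0.18), and by -0.06 after quantile normalization. Htr1b, the other main presynaptic subtype, lay just under the filter, with 631 and 614 on the control arrays, 649 on APPSw 1 and 367 on APPSw 2.

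The Gs-coupled serotonin receptors gave small values above 0. Htr7 had 1219 and 1831 on the control arrays against 1624 and 1689 on the APPSw arrays, a log2 difference of 0.15 (SE 0.24), and -0.14 without control 1. Htr4 was read by 3 probe sets. The tested one, with signals of 1961 and 1792 on the control arrays against 2446 and 2024 on the APPSw arrays, differed by 0.25 (SE 0.19), and its nearest arrays were 1.03-fold apart. The 2 Htr4 probe sets under the filter differed by -0.27 and -0.11, with signals of at most 61.2 and 514.

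Htr2c is the serotonin receptor of the choroid plexus, the epithelium beside the hippocampus that makes cerebrospinal fluid. Its probe set was under the filter, at 259 and 237 on the control arrays against 228 and 250 on the APPSw arrays. Choroid plexus markers summed to 27392 and 18077 on the control arrays, 147411 on APPSw 1 and 21379 on APPSw 2 (11 of 17 genes on the array, none with a signal of 0). Ttr alone gave 83384 of the sum on APPSw 1. The 8 tested genes had log2 differences above 0. Under the filter, Slc4a5 (1.54) lay above 0, and Aqp1 (-1.10) and Cldn2 (-0.30) below. The groups overlapped for Htr2c, and the part of these markers in its signal was not tested. Htr2b, also under the filter, had 201 and 84.6 on the control arrays against 202 and 561 on the APPSw arrays, and Htr1f had 51.7 and 27.4 on the control arrays against 374 and 59.7 on the APPSw arrays.

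The tested dopamine and noradrenaline receptors had overlapping groups. Drd2, an inhibitory receptor and autoreceptor, had signals of 785 and 740 on the control arrays against 909 and 742 on the APPSw arrays. Its log2 difference was 0.11 (SE 0.19), and -0.01 after quantile normalization. Drd4 had 1310 and 1592 on the control arrays against 1434 and 2132 on the APPSw arrays. Its value of 0.28 (SE 0.25) came from APPSw 2 and was -0.01 without that array. Adra2c, an inhibitory adrenergic receptor, had 4244 and 5055 on the control arrays against 3775 and 4361 on the APPSw arrays, a difference of -0.19 (SE 0.19) with overlapping groups. Under the filter, Drd3 had 202 and 130 on the control arrays against 237 and 208 on the APPSw arrays, which were higher by 1.03-fold between the nearest arrays. Adra1b, also under the filter, ran from 168 to 369 with overlapping groups. Markers of striatum and thalamus, the former a site of strong Drd2 expression, summed to 31085 and 31462 on the control arrays against 27994 and 26960 on the APPSw arrays.

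Among peptide receptors, Oprl1, the receptor for nociceptin, had signals of 2427 and 2531 on the control arrays against 2134 and 2200 on the APPSw arrays. Both APPSw arrays were below both controls, with the nearest 1.10-fold apart, but the log2 difference of -0.19 (SE 0.17) was about as large as its error. Its probe set carries the suffix given to probes shared by several transcripts. The 3 classical opioid receptors were under the filter. Oprd1 had 194 and 293 on the control arrays against 699 and 328 on the APPSw arrays, Oprk1 had 90.2 and 215 against 173 and 376, and Oprm1 had 22.6 and 34.1 against 51.9 and 63.1.

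Somatostatin is released by hippocampal interneurons, and Sstr2 and Sstr4 are receptors for it on pyramidal cells. Sstr2 was read by 3 tested probe sets, which differed in sign. Probe set 98351_g_at had signals of 491 and 1889 on the control arrays against 1722 and 2225 on the APPSw arrays. Control 1 stood apart from the other arrays, which overlapped, and the log2 difference was 1.02 (SE 0.61, limma adjusted p = 0.651). That value was 0.05 without control 1 and 2.00 without control 2. Probe set 98352_r_at, with 716 and 1088 on the control arrays against 1164 and 1105 on the APPSw arrays, differed by 0.36 (SE 0.24), and by 0.06 without control 1. Probe set 98350_at, with 775 and 1043 on the control arrays against 753 and 767 on the APPSw arrays, differed by -0.24 (SE 0.21).

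Sstr4 had signals of 4493 and 5262 on the control arrays against 5701 and 4047 on the APPSw arrays. The APPSw arrays lay on either side of the controls, and the log2 difference was -0.02 (SE 0.23), or 0.01 after quantile normalization. Under the filter, Sstr3 had 251 and 224 on the control arrays against 148 and 128 on the APPSw arrays, and Sstr5 had 347 and 396 against 507 and 533. Both separated the groups, in opposite directions. Sstr1 (57.9 to 119 over the arrays) and Tacr1, the substance P receptor (172 to 231), overlapped. Tacr2, like Sstr1 and Tacr1 under the filter, had 276 and 1074 on the control arrays against 1048 and 298 on the APPSw arrays.

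**Figure D2:**
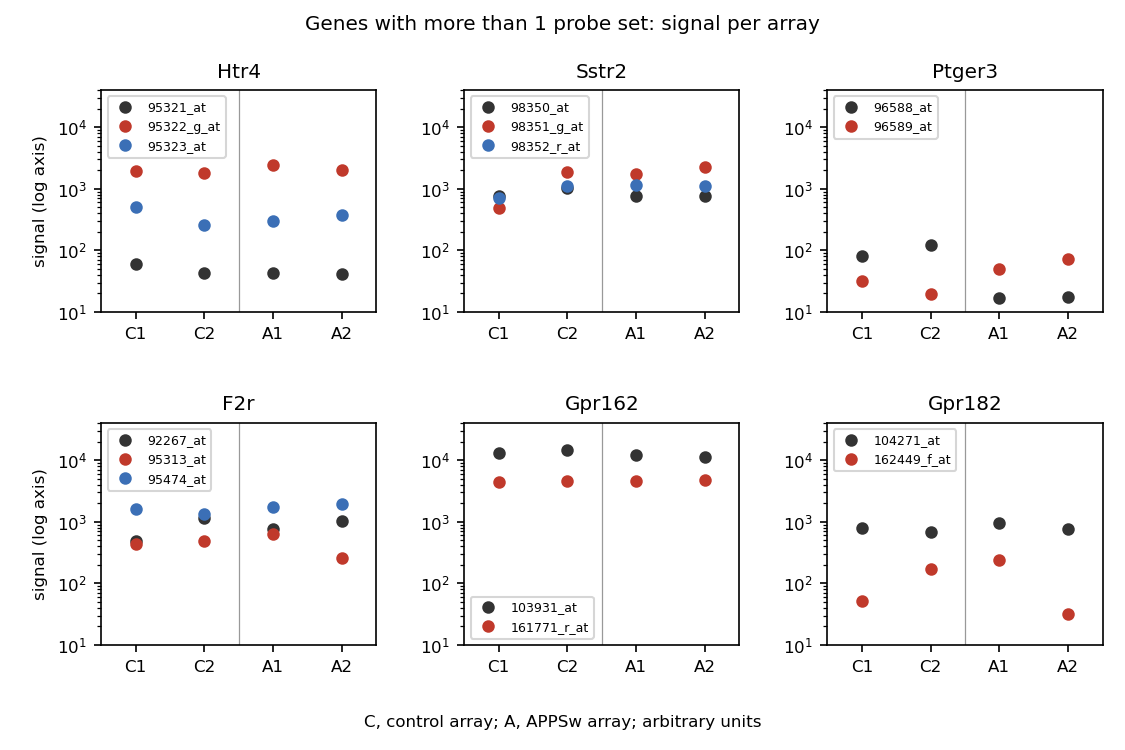
Signal per array (log axis, arbitrary units) for the 6 receptor genes read by more than 1 probe set, with control arrays left and APPSw arrays right of the line in each panel and a colour for each probe set. The red Sstr2 points show control 1 at 491 beside 1722 to 2225 on the other arrays, and the Ptger3 probe sets move in opposite directions between the groups.

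F2r encodes the thrombin receptor, which couples to Gq and is opened by cleavage of its own end. Its brightest probe set had 1634 and 1337 on the control arrays against 1733 and 1946 on the APPSw arrays. Both APPSw arrays exceeded both controls, the nearest by 1.06-fold, and the log2 difference was 0.31 (SE 0.19). The second tested probe set had 482 and 1135 on the control arrays against 753 and 1010 on the APPSw arrays, so the APPSw arrays lay between the controls. Its log2 difference of 0.24 (SE 0.42) became -0.38 without control 1. The remaining F2r probe set, under the filter, differed by -0.18. The related F2rl3 and F2rl2 were also under the filter. F2rl3 had 152 and 128 on the control arrays against 234 and 202 on the APPSw arrays. F2rl2 had 172 and 450 against 92.1 and 542.

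The 10 probe sets of prostaglandin E, endothelin, cannabinoid and nucleotide receptors were all under the filter. Ptger3, an inhibitory prostaglandin receptor, was read by 2 of them, with 80.9 and 120 on the control arrays against 16.9 and 17.5 on the APPSw arrays by 1, and 31.9 and 19.5 against 50.4 and 72.1 by the other. These gave log2 differences of -2.52 and 1.27, so the probe sets of a single gene pointed opposite ways at these low signals. Cnr1, the cannabinoid receptor of hippocampal interneuron terminals, had 167 and 254 on the control arrays against 212 and 187 on the APPSw arrays. Ednrb, an endothelin receptor of astrocytes and endothelium, had 390 and 111 on the control arrays against 188 and 474 on the APPSw arrays. Within each group its arrays differed by more than the group means did.

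Among the Gpr-numbered genes, 9 of 18 probe sets were tested, and their log2 differences ran from -0.26 to 0.21. Gpr162, an orphan of neurons, had signals of 13280 and 14455 on the control arrays against 12081 and 11082 on the APPSw arrays by its brighter probe set. Both APPSw arrays were under both controls, the nearest by 1.10-fold, with a log2 difference of -0.26 (SE 0.17, limma adjusted p = 0.679). The other Gpr162 probe set had 4448 and 4616 on the control arrays against 4656 and 4769 on the APPSw arrays, and differed by 0.06 (SE 0.17). The lower value of Gpr162 therefore rests on 1 of its probe sets.

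Gpr12, a receptor that raises cyclic AMP without added ligand, had 10405 and 10740 on the control arrays against 11394 and 10012 on the APPSw arrays. The APPSw arrays flanked the controls, and the log2 difference was 0.01 (SE 0.18, 95% interval -0.42 to 0.45). Its relative Gpr3 was under the filter, with 416 and 379 on the control arrays against 325 and 300 on the APPSw arrays. Gpr19 had 1871 and 1866 on the control arrays against 2008 and 1996 on the APPSw arrays. Its groups did not overlap, yet the nearest arrays were only 1.07-fold apart, and the log2 difference was 0.10 (SE 0.17). Gpr27 differed by 0.05 (SE 0.18), and Gpr50, a relative of the melatonin receptors, by 0.07 (SE 0.20).

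Gpr37l1, an astrocyte receptor, had signals of 18259 and 21861 on the control arrays against 19922 and 17022 on the APPSw arrays, a log2 difference of -0.12 (SE 0.19) with overlapping groups. Astrocyte markers summed to 137197 and 135620 on the control arrays against 124892 and 142691 on the APPSw arrays, and likewise overlapped. Its relative Gpr37, found in oligodendrocytes, was under the filter, with 144 and 194 on the control arrays against 59.4 and 123 on the APPSw arrays. Oligodendrocyte markers summed to 96856 and 102701 on the control arrays against 94499 and 78271 on the APPSw arrays. Their part in the Gpr37 value was not tested.

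Gpr182, an endothelial receptor, had 793 and 689 on the control arrays against 964 and 757 on the APPSw arrays, a difference of 0.21 (SE 0.20), while endothelial and mural markers summed to 14791 and 13251 against 12451 and 12628. The pseudogene Gpr137b-ps had 3106 and 3036 on the control arrays against 3595 and 3376 on the APPSw arrays, a difference of 0.18 (SE 0.17). Its parent Gpr137b, a lysosomal membrane protein despite its name, was under the filter, with 522 and 1038 on the control arrays against 262 and 275 on the APPSw arrays. These 2 genes are near copies, so their probe sets may share transcripts. Gpr65 and Gpr132, receptors of immune cells, were also under the filter. Gpr65 had 55.0 and 76.1 on the control arrays against 285 and 73.5 on the APPSw arrays. Gpr132 had 221 and 116 against 287 and 465. Microglial markers summed to 46709 and 40960 on the control arrays against 39973 and 44317 on the APPSw arrays.

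**Figure D3:**
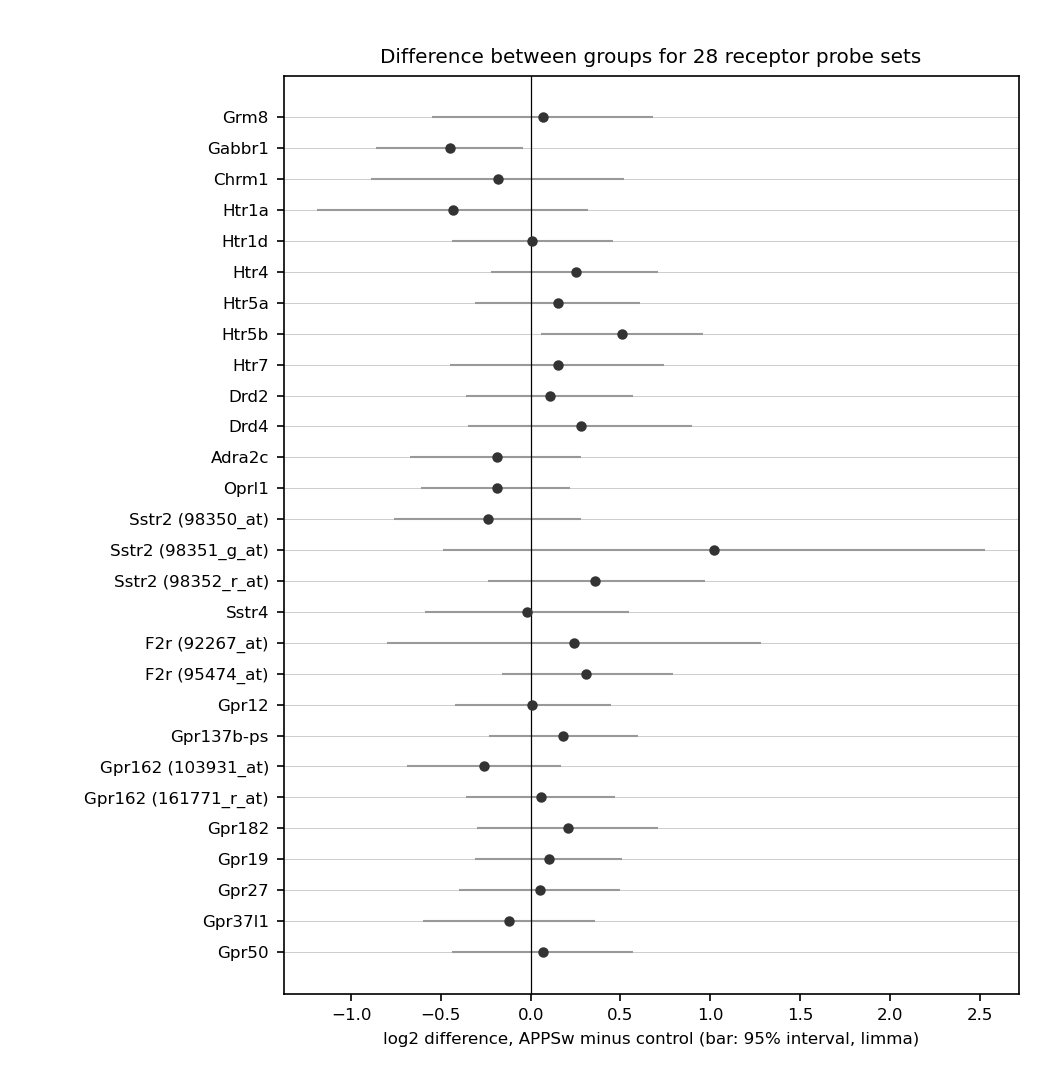
Log2 difference, APPSw minus control, for the 28 tested receptor probe sets (points), with 95% intervals of limma's fit (bars, 2 arrays per group). The intervals of Gabbr1 (-0.86 to -0.04) and Htr5b (0.06 to 0.96) do not cross 0, and neither passed after adjustment; that of Sstr2 98351_g_at is the widest.

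The 39 probe sets under the filter had signals from 16.9 to 1074. Their groups did not overlap for 18 of 39, or 46.2% against 36.5% of the 4969 probe sets under the filter. Without overlap, 12 of the 39 were higher and 6 lower in APPSw mice (30.8% and 15.4%, against backgrounds of 25.8% and 10.7%). Their median log2 difference was 0.09, where all probe sets under the filter had 0.21. Arrays of the same group were more than 2-fold apart for 11 of 39 in controls and 16 of 39 in APPSw mice, but for 2 and 0 of the 28 tested probe sets. With no filter, 6 of 67 receptor probe sets had an unadjusted limma p under 0.05 against a background of 6.57%, and 0 passed the adjusted threshold. These were both Ptger3 probe sets, Gpr137b, Sstr3, Oprm1 and F2rl3.

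The remaining dim members overlapped between groups or had nearest arrays at most 1.27-fold apart. Gpr33 had 408 and 125 on the control arrays against 506 and 459 on the APPSw arrays, Ptger4 had 31.0 and 47.0 against 55.8 and 69.4, and P2ry1 had 32.2 and 23.5 against 44.7 and 40.8. In these 3 both APPSw arrays were higher. Groups overlapped for Ptger1, Ptger2, Cnr2, P2ry2, Gpr83, Gpr143 and the dimmer Gpr182 probe set.

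Among the receptors, the controls often differed as much from each other as from the APPSw arrays. The difference between the controls exceeded that between the group means for 17 of 28 tested receptor probe sets (60.7%), against 51% of all tested probe sets. Control 1 was below control 2 for 20 of 28 (71.4%, against 51% of all), and was the dimmest array for 10 of 28 (35.7%, against 24.5% of all). The receptors' median for control 1 minus control 2 was -0.17, larger in size than their median difference of 0.07 between groups. Relative to the control mean, their median was 0.12 in APPSw 1 and 0.01 in APPSw 2.

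**Figure D4:**
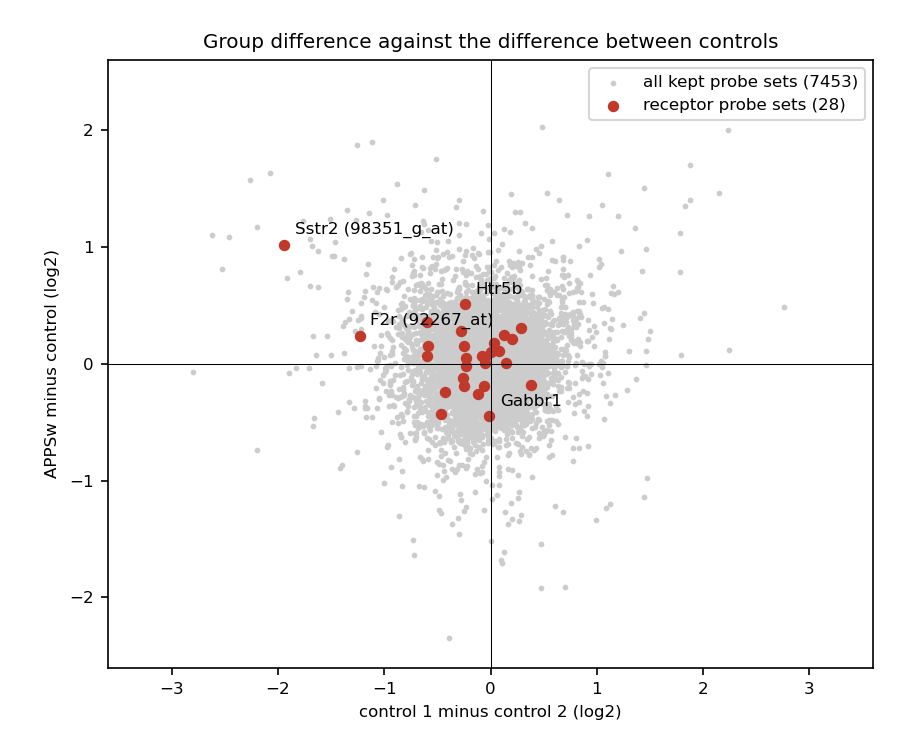
Log2 difference between groups (vertical) against the log2 difference between the 2 controls (horizontal) for all 7453 tested probe sets (grey) and the 28 receptor probe sets (red). Sstr2 98351_g_at and 1 F2r probe set lie far left, where control 1 was dim, while Gabbr1 has controls 0.01 apart on this scale and a group difference of -0.45.

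By the G protein they couple to, 14 tested probe sets belonged to Gi or Go receptors, 3 to Gq receptors and 2 to Gs receptors, and the 9 Gpr-numbered ones were not classed. The medians were 0.04, 0.24 and 0.20, and 0.06 for the last. Of the 14 Gi or Go probe sets, 8 lay above 0 and 6 below, with Gabbr1 at -0.45 and Sstr2 at 1.02 as the extremes. No class had a member past the adjusted threshold.

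Partners of the receptors inside the cell were read from a list of 34 symbols for G protein alpha subunits, receptor kinases, arrestins, scaffolds, phospholipase C and IP3 receptors. Of these, 22 were on the array, and 30 of their 42 probe sets were tested. With limma 0 of 30 passed the adjusted threshold, and 3 had an unadjusted p under 0.05, or 10% against 8.05% of all. All 3 were lower in APPSw mice (3.33% of all), and 0 of 30 were higher (4.72% of all). The groups did not overlap for 14 of 30 (46.7%, against 41.2% of all), with 4 higher and 10 lower (13.3% and 33.3%, against 22.2% and 19%). The list's median was -0.18, against 0.02 over all tested probe sets, and 19 of 30 lay below 0 (63.3%, against 47.3%).

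Gna13, a G protein alpha subunit, had signals of 1257 and 1630 on the control arrays against 851 and 953 on the APPSw arrays by 1 probe set. Both APPSw arrays were lower, the nearest by 1.32-fold, and the log2 difference was -0.67 (SE 0.21, limma unadjusted p = 0.019, adjusted p = 0.599). Its other probe set, with 4110 and 3856 against 2599 and 3300, differed by -0.44 (SE 0.20) in the same direction. Gnaz, a neuronal subunit of the Gi class, had 3568 and 4299 on the control arrays against 2210 and 3027 on the APPSw arrays, a difference of -0.60 (SE 0.23, adjusted p = 0.610). Plcb1, the phospholipase downstream of Gq in pyramidal cells, differed by -0.56 (SE 0.23, adjusted p = 0.612) by 1 probe set and by -0.43 and 0.06 by the others. Without control 2, 0 of the 30 had an unadjusted p under 0.05. The lower marker sums of principal neurons stand beside these values too, and their part was not tested.

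Other partners gave both signs. Arrb1, beta-arrestin 1, which ends receptor signalling, had 3116 and 5099 on the control arrays against 2413 and 2666 on the APPSw arrays by 1 probe set, a difference of -0.65 (SE 0.27), and -0.21 (SE 0.19) by the other. Gnai1 differed by -0.40 (SE 0.17) and -0.13 (SE 0.35). Gnao1, the abundant Go subunit of brain, had values of 0.27 (SE 0.17) from its brightest probe set and of 0.10, -0.03 and -0.54 from the other tested ones. Gnas, the Gs subunit, had 117330 and 126538 on the control arrays against 140177 and 111102 on the APPSw arrays, with overlapping groups and a difference of 0.03 (SE 0.20). Among receptor kinases, Grk5 differed by 0.37 (SE 0.18) and Grk6 by -0.31 (SE 0.21). Homer2, a scaffold of metabotropic glutamate receptors, had 1604 and 1494 on the control arrays against 3162 and 1885 on the APPSw arrays, a difference of 0.66 (SE 0.28). These partners are named after their values were seen.

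**Figure D5:**
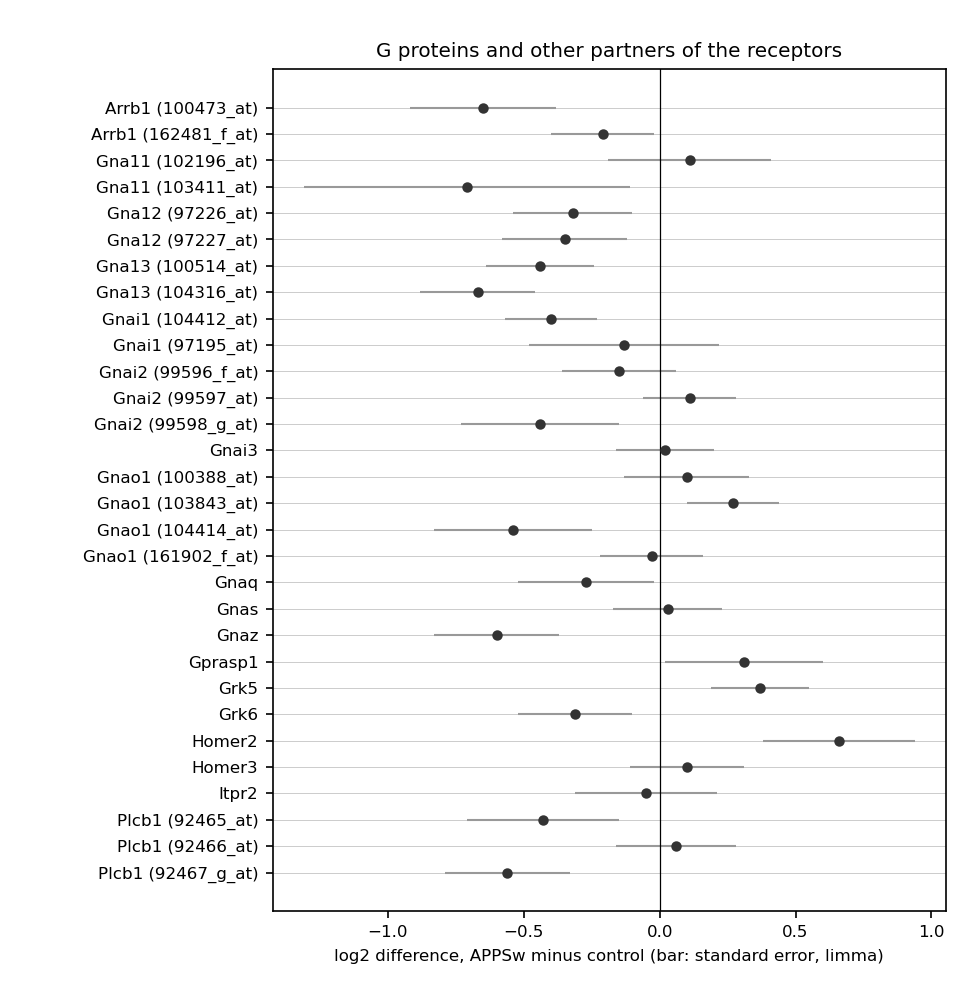
Log2 difference, APPSw minus control (points), with limma's standard error (bars) for the 30 tested probe sets of G protein subunits, receptor kinases, arrestin, scaffolds, phospholipase C and an IP3 receptor. Of the 30, 19 lie below 0, both Gna13 probe sets among them, and Homer2 at 0.66 lies highest.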

How the data were processed

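Hippocampal RNA was measured on 4 Affymetrix arrays, 2 per group. The authors deposited linear signal intensities which, per the labels, came from MAS 5.0 after scaling each array to 2500. Background settings and labelling: not given in the sources used here. Detection calls were not used. Median signals ran from 926 to 1033. The number of arrays limits the precision.

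Probe sets were named from the platform annotation (10833 with 1 symbol, 396 with several and 1193 with none). All 67 member identifiers were found in RefSeq, with 0 symbols changed. Control probe sets (66) and those under the 40th percentile of mean log2 signal were left out. Log2 signals of the other 7453 entered lmFit and eBayes of limma 3.58.1 (R 4.3.3), two-sided, with Benjamini-Hochberg adjustment over all of them and 2 residual and 3.70 prior degrees of freedom. An exact permutation test of 2 against 2 cannot go below p = 0.333.

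The members, gene lists and tests were chosen with earlier results of these data known. The naming rule took 33 receptors in any case, of which 18 were members, the brightest probe set of each family, up to 8 receptors per direction with the smallest p among separated groups, and listed partners with an unadjusted p under 0.05. Other members are described to account for all of them. On simulated data the fit was tested (7453 probe sets, 200 changed, 10 runs per fold). At the adjusted threshold it recovered 0% of the changed probe sets at 1.5-fold, 0% at 2-fold and 90.6% at 4-fold. At an unadjusted limma p under 0.05 it recovered 61.1%, 91.6% and 99.4%. Of the unchanged probe sets 4.99%, 5.09% and 5.13% had such a p, and at 4-fold 9.2 per run passed adjustment. The simulated errors were independent between probe sets, so these shares need not hold for the real arrays. A probe set that missed the adjusted threshold is therefore not shown to be unchanged. Alternatives were quantile normalization, no filter, a 60th percentile filter, a floor and a pseudocount of 250, a replicate block, a variance trend, and each array left out.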

Additional observations from a re-analysis of the deposited data

How the results depend on the processing

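The count of receptors passing limma's adjusted threshold was 0 under every alternative run. No probe set of the array passed it under any of them, so the 0 shows no stability. The count at an unadjusted limma p under 0.05 was 2 of 28, against 8.05% of all tested probe sets. It became 1 with the replicate block (7.5% of all) and 1 with the variance trend (8.83%). The 60th percentile filter gave 1 of 18 (9.9%), and no filter gave 6 of 67 (6.57%). Gabbr1 was the 1 with the stricter filter and with the trend. Neither Gabbr1 nor Htr5b was counted with the block, with no filter or with any array left out. The block's 1 was Sstr2 (98351_g_at). Separated groups, 11 of 28 (41.2% of all), became 29 of 67 with no filter (39.3% of all). They became 19 to 20 of 28 with an array left out. There fewer arrays make separation easier, and the background rose to between 66.1% and 74.9%. The receptors' median stayed between 0.01 and 0.12. The median of the receptors' partners was -0.25 to -0.10 with an array left out, -0.25 without control 1. Partners with an unadjusted limma p under 0.05 were 3 lower and 0 higher of 30. They became 4 lower and 1 higher with the replicate block, and 6 and 2 with the variance trend. The pseudocount gave 5 and 1, the stricter filter 5 and 1 of 26, and no filter 0 and 1 of 42. The shares over all probe sets were those given above for each setting, and 8.22% with the pseudocount. The labels do not say whether equal replicate numbers pair animals. The differences of replicate 1 minus 2 in each group correlated at -0.02 across tested probe sets. That value cannot decide it, since differences particular to 1 array can hide a shared one. Of 28 tested receptor probe sets, 16 kept their sign under every alternative and 12 did not, 8 of them only with an array left out. After quantile normalization Sstr4 was 0.01, Htr1d -0.06, Grm8 -0.05 and Drd2 -0.01. With an array left out the values ran from -0.14 to 0.44 for Htr7, -0.53 to 0.16 for Chrm1, -0.38 to 0.85 for F2r (92267_at), -0.23 to 0.37 for Grm8, -0.06 to 0.16 for Gpr27 and -0.08 to 0.11 for Gpr12. They ran from -0.26 to 0.23 for Sstr4, -0.10 to 0.11 for Htr1d, -0.25 to 0.01 for Gpr37l1, -0.13 to 0.27 for Gpr50, -0.04 to 0.25 for Drd2 and -0.01 to 0.56 for Drd4. These fits take the spread of the group with 1 array from the other group. The block and the trend change only the fit, so they give no other count of separated groups. The causes of these shifts were not tested.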
